A study of Mus musculus with 96 samples.

Results

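Osteoblasts and osteocytes, the cells that build mineralized bone matrix and the cells embedded in it, were represented by 10 genes of the deposited count table, *Sp7*, *Alpl*, *Phex*, *Ibsp*, *Spp1*, *Bglap*, *Bglap2*, *Dmp1*, *Mepe*, and *Sost*. They were taken by symbol, and all 10 were found among 41575 gene symbols. The data came from multiplexed RNA sequencing (MuSeq), in which the RNA of each sample is barcoded at reverse transcription and the samples are then pooled for library construction. It covered 16 tissues of wild-type (WT) mice and of mice labelled *Scx*-/-, for the gene of scleraxis, a transcription factor of the tendon lineage. All mice were 3 weeks old, no other allele or treatment is labelled, and each tissue and genotype had 3 libraries, giving 96 libraries. How the *Scx* allele was made, the strain, the sex, the part of the skeleton used for bone and cartilage, and which libraries shared a mouse are not stated in these sources, so *p*-values measure the spread between libraries. Levels are given as CPM, a gene's count per 1000000 counts of its library.

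The members act at successive steps of bone formation. Sp7 (osterix) is the zinc finger transcription factor that commits precursors to the osteoblast fate, downstream of Runx2. Alpl, tissue-nonspecific alkaline phosphatase, removes the pyrophosphate that blocks mineral growth, and Phex is a membrane endopeptidase whose loss causes phosphate wasting and soft bones. Ibsp (bone sialoprotein), Spp1 (osteopontin), Dmp1, and Mepe are phosphoproteins of the mineralized matrix, and Dmp1 and Mepe mark osteocytes. *Bglap* and *Bglap2* encode osteocalcin, the vitamin K-dependent protein of mature osteoblasts, and Sost (sclerostin) is the Wnt inhibitor with which osteocytes restrain bone formation.

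Genes for the matrix phosphoproteins lie in 1 cluster. On mouse build mm10 the 4 genes *Dmp1*, *Ibsp*, *Mepe*, and *Spp1* are all on the plus strand of chromosome 5 within 238 kb (chr5:104202613-104441050). *Bglap2* (chr3:88377736-88378699) and *Bglap* (chr3:88383501-88384464) are neighbors on the minus strand of chromosome 3, next to *Bglap3*. The most alike annotated transcripts of *Bglap* and *Bglap2* were 92.1% identical, and 51.3% of the 50-base stretches of *Bglap* transcripts were also in *Bglap2*, so the authors' counting could have split reads between them, and their separate counts are uncertain. *Sp7* is on chromosome 15 (chr15:102356606-102367182), *Alpl* on chromosome 4 (chr4:137741733-137796384), *Phex* on the X chromosome (chrX:157162075-157415312), and *Sost* on chromosome 11 (chr11:101962458-101967015), all on the minus strand.

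Sequences before the transcription start were read from RefSeq on GRCm38.p6, the assembly of mm10, for 8 of the 10 members, to set the members' windows side by side. Each window held the 250 bases before the start nearest to the annotated one. The hexamer TGTGGT and its reverse complement ACCACA, the core of the sites bound by Runx factors, were searched on both strands. It stood in 4 of the 8 windows (50% of them), those of *Bglap*, *Dmp1*, *Mepe*, and *Spp1*, and in 4614 of 32851 promoter windows of the same length (14.05%). That background counts every listed window, several for some genes. Further windows of *Alpl*, *Dmp1*, and *Spp1*, farther from the annotated start, held no match and were left out, so the shares are not alike in kind. The windows of *Alpl*, *Ibsp*, *Phex*, and *Sost* held no match, so a match did not separate members that were high in bone from *Sost*. The 4 windows with a match and those of *Ibsp*, high in bone, and *Sost* are printed 5′ to 3′ on the gene's strand with the matches in capitals.
Bglap (chr3:88384467-88384716, minus strand): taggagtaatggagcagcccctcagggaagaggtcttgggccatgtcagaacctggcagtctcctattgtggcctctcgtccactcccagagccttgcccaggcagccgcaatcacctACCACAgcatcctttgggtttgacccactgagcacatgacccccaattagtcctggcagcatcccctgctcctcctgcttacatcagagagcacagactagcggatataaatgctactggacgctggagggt
Dmp1 (chr5:104202367-104202616, plus strand): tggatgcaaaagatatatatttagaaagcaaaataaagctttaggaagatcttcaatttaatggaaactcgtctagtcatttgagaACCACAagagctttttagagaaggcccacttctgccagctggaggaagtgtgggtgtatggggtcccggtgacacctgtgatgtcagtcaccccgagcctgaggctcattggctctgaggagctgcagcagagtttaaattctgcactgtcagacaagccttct
Mepe (chr5:104325079-104325328, plus strand): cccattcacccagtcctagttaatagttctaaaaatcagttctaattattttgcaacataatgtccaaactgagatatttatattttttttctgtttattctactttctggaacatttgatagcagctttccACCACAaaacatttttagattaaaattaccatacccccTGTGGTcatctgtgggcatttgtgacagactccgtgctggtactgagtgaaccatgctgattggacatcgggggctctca
Spp1 (chr5:104434861-104435110, plus strand): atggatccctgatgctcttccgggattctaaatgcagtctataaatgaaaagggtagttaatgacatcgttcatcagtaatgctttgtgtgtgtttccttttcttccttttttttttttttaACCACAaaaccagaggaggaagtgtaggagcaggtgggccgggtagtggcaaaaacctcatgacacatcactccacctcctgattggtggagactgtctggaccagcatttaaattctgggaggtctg
Ibsp (chr5:104299037-104299286, plus strand): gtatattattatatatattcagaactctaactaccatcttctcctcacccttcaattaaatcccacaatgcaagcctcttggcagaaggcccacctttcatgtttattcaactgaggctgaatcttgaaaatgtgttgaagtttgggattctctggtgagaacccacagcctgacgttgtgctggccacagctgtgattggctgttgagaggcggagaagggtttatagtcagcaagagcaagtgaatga
Sost (chr11:101967016-101967265, minus strand): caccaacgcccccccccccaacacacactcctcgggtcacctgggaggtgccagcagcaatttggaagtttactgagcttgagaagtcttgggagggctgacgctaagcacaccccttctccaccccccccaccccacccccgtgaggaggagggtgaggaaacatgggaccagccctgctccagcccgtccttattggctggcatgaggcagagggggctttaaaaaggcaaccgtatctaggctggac
The last matching base stood 127 bases before the start of *Bglap*, 123 before that of *Spp1*, 159 before that of *Dmp1*, and 75 before that of *Mepe*, whose window held a match on each strand. A match is a description of letters and does not show that a factor binds there.

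Depth limited what could be seen in bone. Totals were 42272 to 240564 counts per library in bone and 205359 to 276018 in cartilage, against 11244 to 1658192 over all 96 libraries. In bone 1 count was therefore worth more CPM than in most tissues, and in the 2 shallowest bone libraries a count of 0 allows up to 63.7 and 71.0 CPM (3 counts of the total, counting error only). *Scx* itself had 18, 2, and 0 counts in the WT bone libraries and 0 in the *Scx*-/- ones. In cartilage it had 0, 7, and 1 counts in WT libraries, and the library labelled *Scx*-/- replicate 1 held 9 counts while the others had 0. The part of the gene that was deleted is not given, so those counts do not tell whether that library goes against its label, and fitted values without it are given beside those in cartilage. Over all tissues 12 of 48 WT libraries and 1 of 48 *Scx*-/- libraries had a count.

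The labelled tissues held their defining markers together with those of neighbors. Summed skeletal muscle markers (12 genes) took 2.99 to 10.7% of counts in bone, 14.3 to 18.3% in cartilage, and 28.0 to 32.9% in muscle. Chondrocyte markers (16 genes, 2 at 0 in both tissues) summed to 5388 to 11485 CPM in bone and 2543 to 22787 CPM in cartilage, so by these genes the tissues overlapped. Markers of osteoclasts, the cells that resorb bone, summed to 3809 to 6033 CPM in bone and 451 to 1931 CPM in cartilage, with 1 of 9 genes at 0 in each. In bulk tissue, fewer cells of a type and less RNA per cell cannot be told apart.

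Across the 16 tissues most members marked bone and, at a lower level, cartilage. Their summed level was 6832 ± 2028 CPM (SD, n = 3) in WT bone and 6619 ± 366 CPM (SD, n = 3) in *Scx*-/- bone, and 2438 ± 760 CPM and 2070 ± 683 CPM in WT and *Scx*-/- cartilage. Kidney lay near cartilage, with 2118 ± 613 CPM in WT and 2082 ± 98.5 CPM in *Scx*-/- mice, of which *Spp1* and *Alpl* made up nearly everything. In the other 13 tissues no library exceeded 1067 CPM, and that value, from a heart library with 11244 counts in all, rested on 12 counts of *Spp1*. Bone was compared with each of the 15 other tissues by edgeR's quasi-likelihood test on 6 against 6 libraries, with genotype as a term and Benjamini-Hochberg adjustment over all genes. Of 150 member and tissue pairs, 125 were called higher in bone at an adjusted *p* under 0.05 and 0 lower, where over the 15 comparisons 2.95% of all gene tests were called higher in bone and 5.17% lower. DESeq2 called 122 higher and 0 lower. The genes are known markers of bone, so these counts describe how well the labelled tissue holds them.

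**Figure D1:**
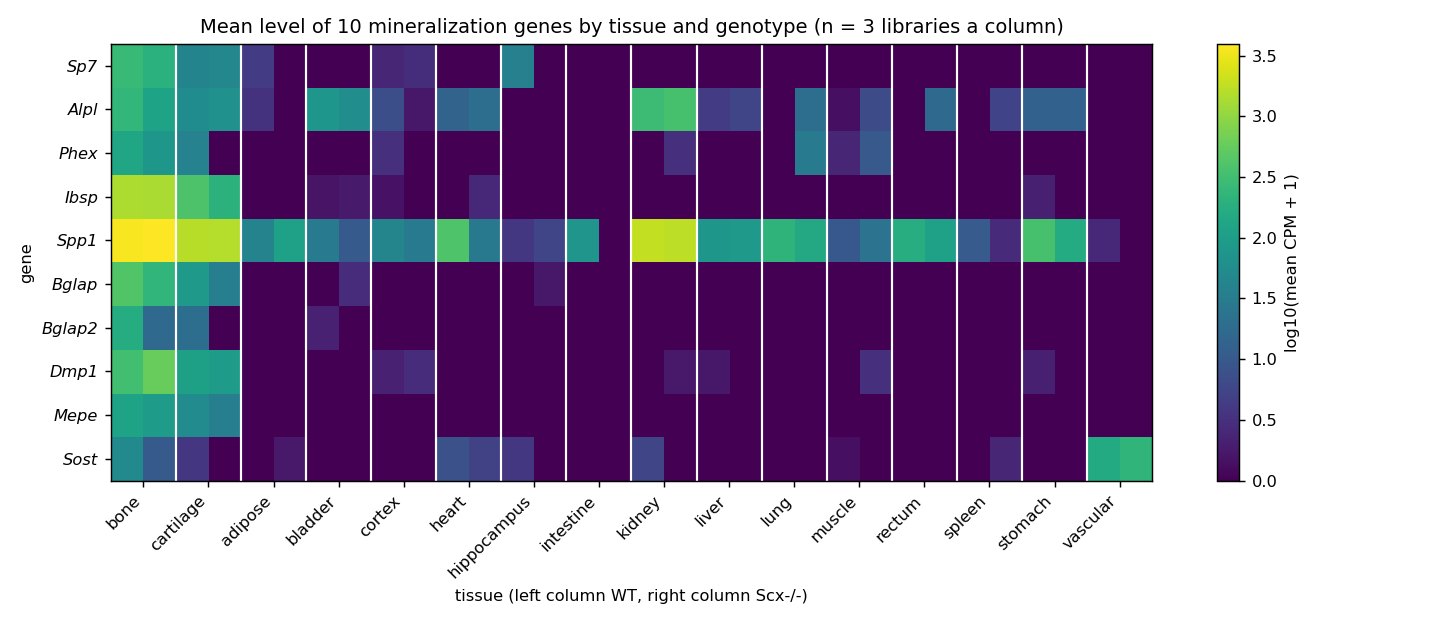
Mean level of each gene (rows, log10 of mean CPM + 1) in 16 tissues (columns, WT left and *Scx*-/- right, n = 3 libraries each). Rows other than *Spp1*, *Alpl*, and *Sost* are bright mainly in bone and cartilage, *Spp1* and *Alpl* are also bright in kidney, and *Sost* is brightest in vascular samples.

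Detection separated the members into groups. *Mepe* was found in 5 of 6 bone and 3 of 6 cartilage libraries and in 0 of the 84 others. Bone and cartilage together held 99.6% of the 1331 *Ibsp* counts, 99.1% of the 323 *Bglap* counts, 96.6% of the 59 *Bglap2* counts, 96.02% of the 452 *Dmp1* counts, and 84.5% of the 194 *Sp7* counts. For *Phex* the share was 69.9% of 166 counts. *Spp1*, in contrast, had counts in 78 of 96 libraries and *Alpl* in 44, and bone and cartilage held 38.7% and 13.0% of their counts. *Sost* stood at the other end with 6.44% of 233 counts. These shares follow the depth of each tissue. As a share of the 16 tissue means in CPM, which weight tissues equally, bone and cartilage held 46.0% and 19.5% for *Spp1*, 26.2% and 8.76% for *Alpl*, 71.6% and 13.3% for *Phex*, and 13.2% and 0.580% for *Sost*.

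*Sp7*, the osteoblast transcription factor, was found in all 6 bone libraries. Its values were 208, 134, and 446 CPM in WT bone and 41.6, 177, and 379 CPM in *Scx*-/- bone, with the groups overlapping widely. In cartilage they were 0, 36.3, and 87.0 CPM in WT and 0, 102, and 32.6 CPM in *Scx*-/- libraries. Outside these tissues *Sp7* reached over 10 CPM only in WT hippocampus, at 59.0, 48.7, and 0 CPM, from 16 counts in all.

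Among the genes that act on phosphate and pyrophosphate, *Alpl* was found in all 6 bone libraries. It measured 329, 50.2, and 339 CPM in WT and 166, 145, and 47.3 CPM in *Scx*-/- bone, so 2 of 3 WT libraries lay above all *Scx*-/- ones and the third among them. In cartilage it was 27.5, 56.4, and 79.8 CPM in WT and 0, 34.1, and 163 CPM in *Scx*-/- libraries, an order set by single libraries. *Phex* was uneven, at 364, 16.7, and 0 CPM in WT bone and 112, 129, and 0 CPM in *Scx*-/- bone. Of its 43 counts in WT bone, 42 came from replicate 1. In cartilage *Phex* had 4.59, 56.4, and 54.4 CPM in WT libraries (1, 14, and 15 counts) and 0 in all 3 *Scx*-/- libraries.

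Among the mineral-binding phosphoproteins, *Spp1* was at 4611, 3497, and 2928 CPM in WT bone and 4876, 3331, and 3619 CPM in *Scx*-/- bone, and in every library it stayed above the cartilage values of 1304, 1706, and 1904 CPM (WT) and 1455, 1203, and 2119 CPM (*Scx*-/-). It was the 1 member whose 6 bone libraries all lay above the 6 cartilage libraries, where 0.229% of all genes did so. *Ibsp* measured 2436, 1221, and 679 CPM in WT and 1006, 1489, and 1585 CPM in *Scx*-/- bone. The highest and the lowest of these values were both WT. Cartilage held 202, 685, and 297 CPM of *Ibsp* in WT and 219, 175, and 221 CPM in *Scx*-/- libraries, and 1 WT cartilage library lay just above the lowest bone value.

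*Dmp1*, made by osteocytes, measured 364, 452, and 149 CPM in WT bone and 366, 660, and 686 CPM in *Scx*-/- bone. The lowest *Scx*-/- library lay between the WT libraries, so the groups overlapped by 1 library. In cartilage *Dmp1* was 18.4, 173, and 138 CPM in WT and 57.9, 39.0, and 188 CPM in *Scx*-/- libraries. *Mepe*, another osteocyte gene, was at 43.3, 318, and 0 CPM in WT bone and 62.4, 169, and 47.3 CPM in *Scx*-/- bone, and the spread within each genotype was larger than the difference between them. Its cartilage values were 0, 88.7, and 72.5 CPM in WT and 0, 0, and 101 CPM in *Scx*-/- libraries.

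Osteocalcin transcripts were spread over *Bglap* and *Bglap2*. *Bglap* measured 485, 301, and 467 CPM in WT bone and 407, 282, and 0 CPM in *Scx*-/- bone. The 0 came from the shallowest bone library, in which the level of the other *Scx*-/- bone libraries would have given 15.4 counts, and the same library held *Ibsp* at 1585 CPM and *Spp1* at 3619 CPM. *Bglap2* was found at 199 and 301 CPM in WT bone with 0 in the third library, and at 0, 0, and 47.3 CPM (2 counts) in *Scx*-/- bone. Summed, a choice made after seeing the data, the genes gave 467 to 685 CPM in WT bone (585 ± 110, SD, n = 3) and 47.3 to 407 CPM in *Scx*-/- bone (245 ± 183, SD, n = 3). All 3 WT libraries lay above all 3 *Scx*-/- ones, where 5.72% of all genes, each taken singly, did not overlap between genotypes in bone. In cartilage *Bglap* was 9.18, 92.7, and 156 CPM in WT and 16.5, 53.6, and 29.0 CPM in *Scx*-/- libraries, and *Bglap2* had 14 counts in 1 WT library.

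*Sost*, the osteocyte Wnt inhibitor, had few counts in bone. It had 1, 5, and 3 counts in WT bone (8.67, 83.7, and 63.7 CPM) and 1, 3, and 0 counts in *Scx*-/- bone (4.16, 24.1, and 0 CPM). Cartilage had 2 counts in 1 WT library. No difference between genotypes was detectable at this depth for *Sost*.

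**Figure D2:**
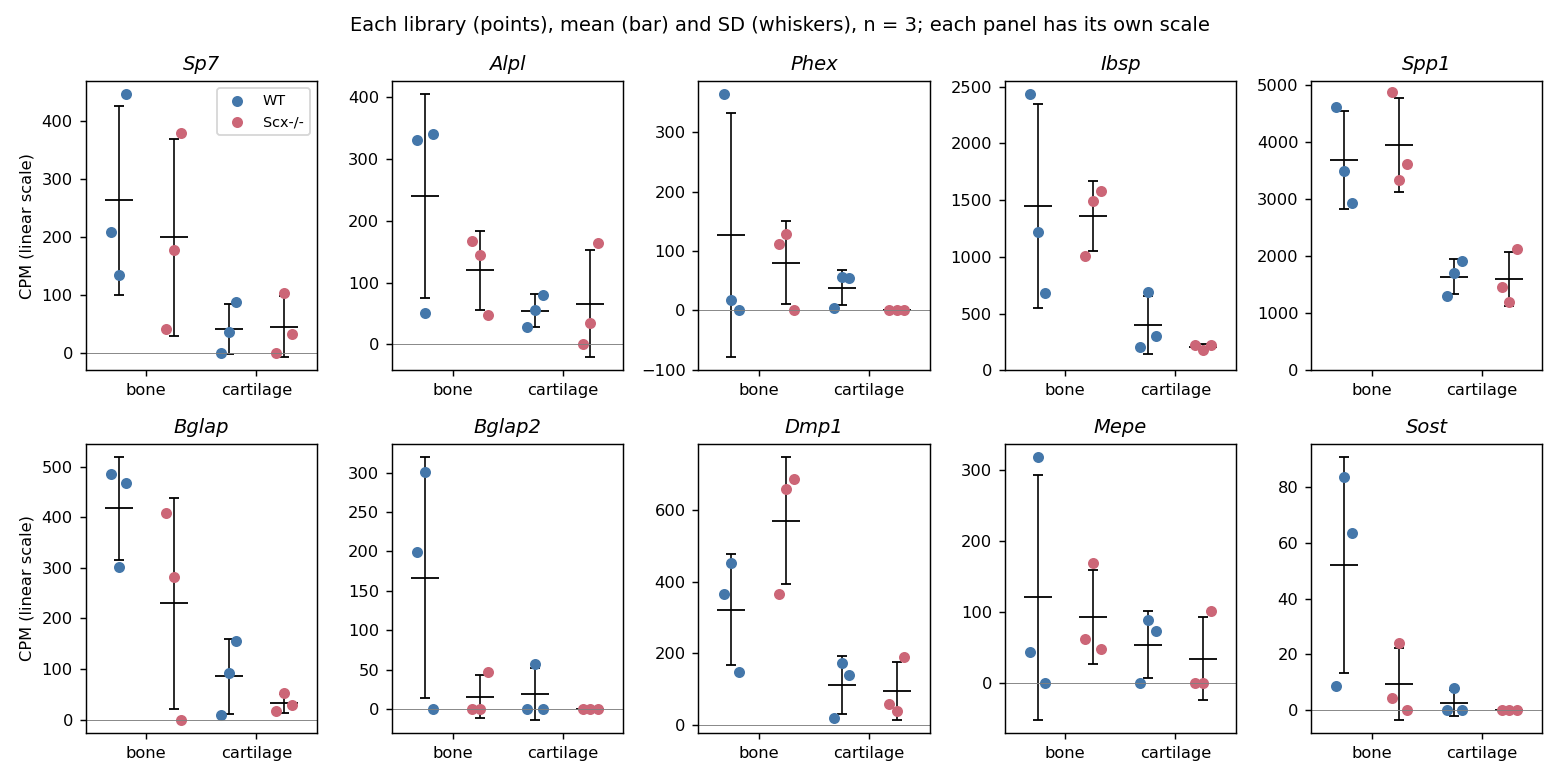
CPM of each gene (linear axes, each panel with its own scale and a line at 0) in bone and cartilage libraries of WT (blue) and *Scx*-/- mice (red), with the mean (bar) and SD (whiskers, n = 3). *Spp1* separates bone from cartilage in every library, and points of WT and *Scx*-/- bone overlap in each panel.

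Spread between replicates was set beside counting error. In WT bone the coefficient of variation was 23.3% for *Spp1* (879 counts), 62.2% for *Ibsp* (386 counts), and 162% for *Phex* (43 counts), where counting alone gives 6.29%, 9.45%, and 26.7%. *Bglap* in WT bone varied by 24.3% against 19.1% from counting, but in *Scx*-/- bone by 90.8% against 15.8%. A member was at 0 in 8 of 60 member and library pairs in bone and in 19 of 60 in cartilage.

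Bone against cartilage was the closest comparison. All 10 members were higher in bone in the fit, by a median of 1.95 on the log2 scale where the median of all genes was -0.38, and 1 of them, *Ibsp*, was called (log2 fold change 1.96 ± 0.39 SE, adjusted *p* = 0.000183 by edgeR). Of all genes 0.182% were called higher in bone (27 of 14858) and 1.02% lower (151). *Bglap* (2.28 ± 0.67, adjusted *p* = 0.0563) and *Spp1* (0.91 ± 0.28, adjusted *p* = 0.0723) came next and missed the threshold, as did *Dmp1* (1.69 ± 0.58, adjusted *p* = 0.158). The scaling mattered here. The trimmed mean of M-values (TMM) factors used in the fit moved the median of all genes from -0.08 on library totals to -0.38, and with library totals 4 members were called, *Ibsp* (adjusted *p* = 4.72e-06), *Spp1* (0.00402), *Bglap* (0.0201), and *Dmp1* (0.0362), each with edgeR. With totals 50 genes of all were called higher and 75 lower, against 27 and 151 with TMM. DESeq2 also called these 4 members. Marker lists moved with this comparison. All 12 skeletal muscle markers given above were called lower in bone (median -1.60), and 1 of 7 smooth muscle markers was. Higher in bone were 3 of 8 osteoclast markers tested (median 1.77) and 3 of 7 kidney tubule markers (median 5.52). The part of these lists in the difference was not tested.

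**Figure D3:**
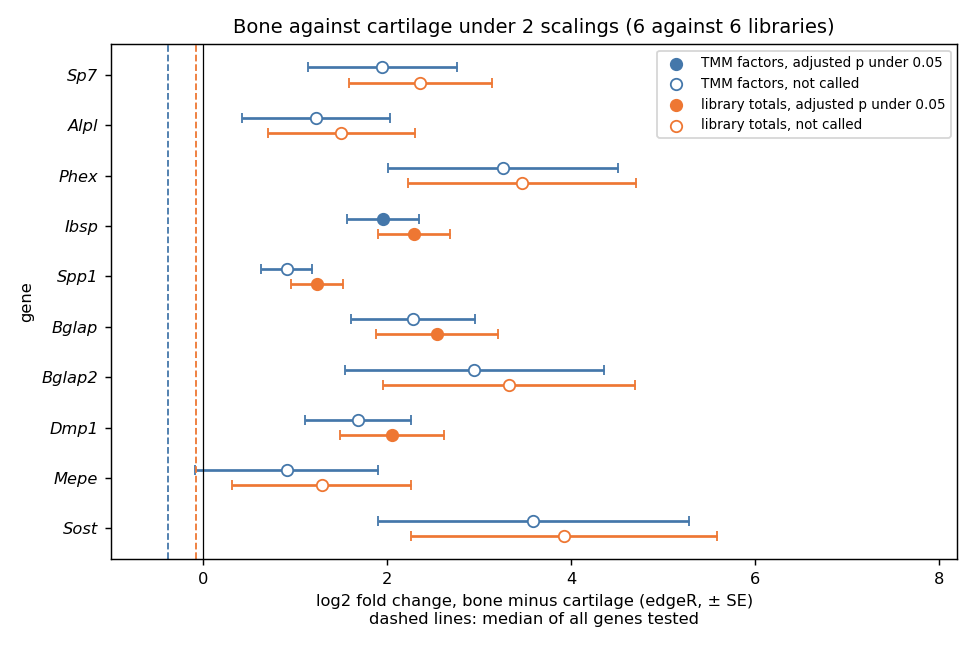
Log2 fold change of each gene, bone minus cartilage (6 against 6 libraries, edgeR, ± SE), with TMM factors (blue) and library totals (orange). Filled points have an adjusted *p* under 0.05, and dashed lines are the median of all genes tested. *Ibsp* is filled under both scalings, and *Spp1*, *Bglap*, and *Dmp1* with library totals.

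Without some libraries the count of called members changed from 1 to 3 (without WT bone replicate 2, or *Scx*-/- bone replicate 3) or to 2 (without WT bone replicate 3, or WT cartilage replicate 3). *Ibsp* stayed called without any 1 bone or cartilage library, at adjusted *p* of 1.04e-05 to 0.0136 by edgeR. When *Bglap* and *Bglap2* were summed, an alternative chosen after seeing the data, osteocalcin was called (2.41 ± 0.62, adjusted *p* = 0.0128 by edgeR).

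Against muscle 8 of 10 members were called higher in bone, where 1.77% of all genes were. *Ibsp*, *Bglap*, *Bglap2*, *Mepe*, and *Sp7* were at 0 in all 6 muscle libraries. By counting error alone, their pooled levels in bone were at least 1798, 468, 87.9, 127, and 206-fold higher, against a floor of 3 counts over the muscle libraries. Replicates spread more widely than counting, so these bounds are not firm. Without WT bone replicate 1 the bound for *Bglap2* was 50.04-fold. *Spp1* was at 0 to 30.85 CPM in muscle and *Dmp1* had 5 counts in 1 library. *Phex* (3.51 ± 1.15, adjusted *p* = 0.0507) and *Sost* (4.65 ± 1.57, adjusted *p* = 0.0608) were not called with TMM factors in edgeR and were called with library totals or RLE size factors. Here too the scaling shifted all genes, from a median of -0.66 with TMM (277 genes called higher and 433 lower) to 0.08 with library totals (599 higher and 202 lower). *Phex* was at 4.22, 16.6, and 10.4 CPM in 3 muscle libraries and at 0 in the others, and 1 lung library held it at 87.9 CPM (20 counts).

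Over the tissues in which a member had no count, the pooled bone level exceeded the floor by at least 335 to 1798-fold for *Ibsp* (10 tissues), 105 to 373-fold for *Dmp1* (9 tissues), 87.3 to 767-fold for *Bglap* (12 tissues), and 23.6 to 208-fold for *Mepe* (14 tissues). The range reflects the depth of the other tissue. These bounds allow for counting error only, and replicates spread more widely than that. Bounds were 38.5 to 206-fold for *Sp7* (11 tissues), 32.8 to 134-fold for *Phex* (10 tissues), and 16.4 to 144-fold for *Bglap2* (13 tissues). WT bone replicate 1 carried much of the last 2, and without it the pooled bone level went from 137 to 85.6 CPM for *Phex* and from 68.3 to 38.9 CPM for *Bglap2*, with bounds of 20.5 to 84.1-fold and 9.33 to 82.0-fold. Counted by member, bone was called higher in 15 of 15 tissues for *Ibsp*, in 14 for *Bglap*, *Spp1*, *Dmp1*, *Mepe*, and *Sp7*, each of which missed cartilage alone, in 13 for *Bglap2*, 12 for *Phex*, 11 for *Alpl*, and 4 for *Sost*.

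Kidney held *Spp1* and *Alpl*, which tubule cells also use. *Spp1* measured 1892, 1200, and 2373 CPM in WT and 1759, 1701, and 1732 CPM in *Scx*-/- kidney, below every bone library and level with cartilage, from which kidney differed by less than the spread between libraries (1776 ± 377 CPM in kidney and 1615 ± 357 CPM in cartilage, SD over 6 libraries). *Alpl* measured 265, 281, and 330 CPM in WT and 277, 488, and 280.5 CPM in *Scx*-/- kidney. That was the highest mean of any tissue, 320 ± 85.2 CPM against 180 ± 129 CPM in bone, and 2 WT bone libraries lay within the kidney range. In the fit *Spp1* was called higher in bone (0.92 ± 0.29, adjusted *p* = 0.0176 by edgeR, where 4.32% of all genes were), and *Alpl* was not called (-1.01 ± 0.52, adjusted *p* = 0.198). The *Spp1* call was lost without replicate 1 of WT bone (adjusted *p* = 0.0818) or of *Scx*-/- bone (0.0910), and in the joint fit of all 96 libraries (0.207), each by edgeR. Bladder followed for *Alpl*, at 126, 58.9, and 48.02 CPM in WT and 94.5, 46.8, and 28.8 CPM in *Scx*-/- libraries.

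Transcripts of kidney tubules were also counted in bone. The 7 kidney tubule markers summed to 485 to 1389 CPM in WT bone, 108 to 213 CPM in *Scx*-/- bone, and 0 to 3.62 CPM in cartilage. Their sums did not overlap between genotypes in bone, where 5.72% of all genes, each taken singly, did not. *Kap*, the androgen-regulated kidney protein, averaged 670 CPM in WT bone, 72.1 CPM in *Scx*-/- bone, and 15063 CPM in kidney. Relative to kidney the summed markers were at 1.83 to 5.23% in WT bone and 0.407 to 0.801% in *Scx*-/- bone. By *Kap* alone the shares were 1.90 to 6.66% and 0.276 to 0.785%. The summed shares of the kidney means correspond to 7.22 to 92.8 CPM of *Spp1*, where bone held 2928 to 4876 CPM, and to 1.30 to 16.7 CPM of *Alpl*, where bone held 47.3 to 339 CPM. The highest share and a low *Alpl* value met in WT bone replicate 2, with 16.7 CPM beside 50.2 CPM measured. The part of kidney transcripts in the bone values was not tested. Other members had at most 14 counts in kidney.

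*Sost* had its highest mean in vascular samples, at 189 ± 163 CPM against 30.7 ± 34.8 CPM in bone, the next tissue (SD over 6 libraries). The study set its vascular samples aside after finding genes of brown fat among those that marked them, so the labelled tissue is uncertain. In these libraries *Ucp1*, the uncoupling protein of brown fat, was at 939 to 7741 CPM and *Cidea*, a lipid droplet protein of brown fat, at 425 to 1927 CPM, against 0 to 15.9 and 0 to 41.96 CPM in adipose. Both were chosen after their values were seen, and their part in the *Sost* level was not tested. In vascular samples it measured 141, 291, and 32.1 CPM in WT (50, 45, and 7 counts) and 426, 0, and 246 CPM in *Scx*-/- libraries (65, 0, and 22 counts). The other 9 members had 1 count in all in the 6 vascular libraries, of *Spp1*. Vascular samples exceeded bone for *Sost* (-2.91 ± 1.03 for bone minus vascular), with an adjusted *p* of 0.0962 by edgeR, and they were called higher when genes were filtered with filterByExpr (0.0312) and in the joint fit (0.0124). Of all genes 1.36% were called lower in bone. *Sost* was also found at 20.5 and 12.5 CPM in 2 heart libraries and at 13.8 CPM in 1 WT kidney library. The smooth muscle markers (7 genes) were at 4893 to 11927 CPM in vascular samples and 700 to 2493 CPM in bone.

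**Figure D4:**
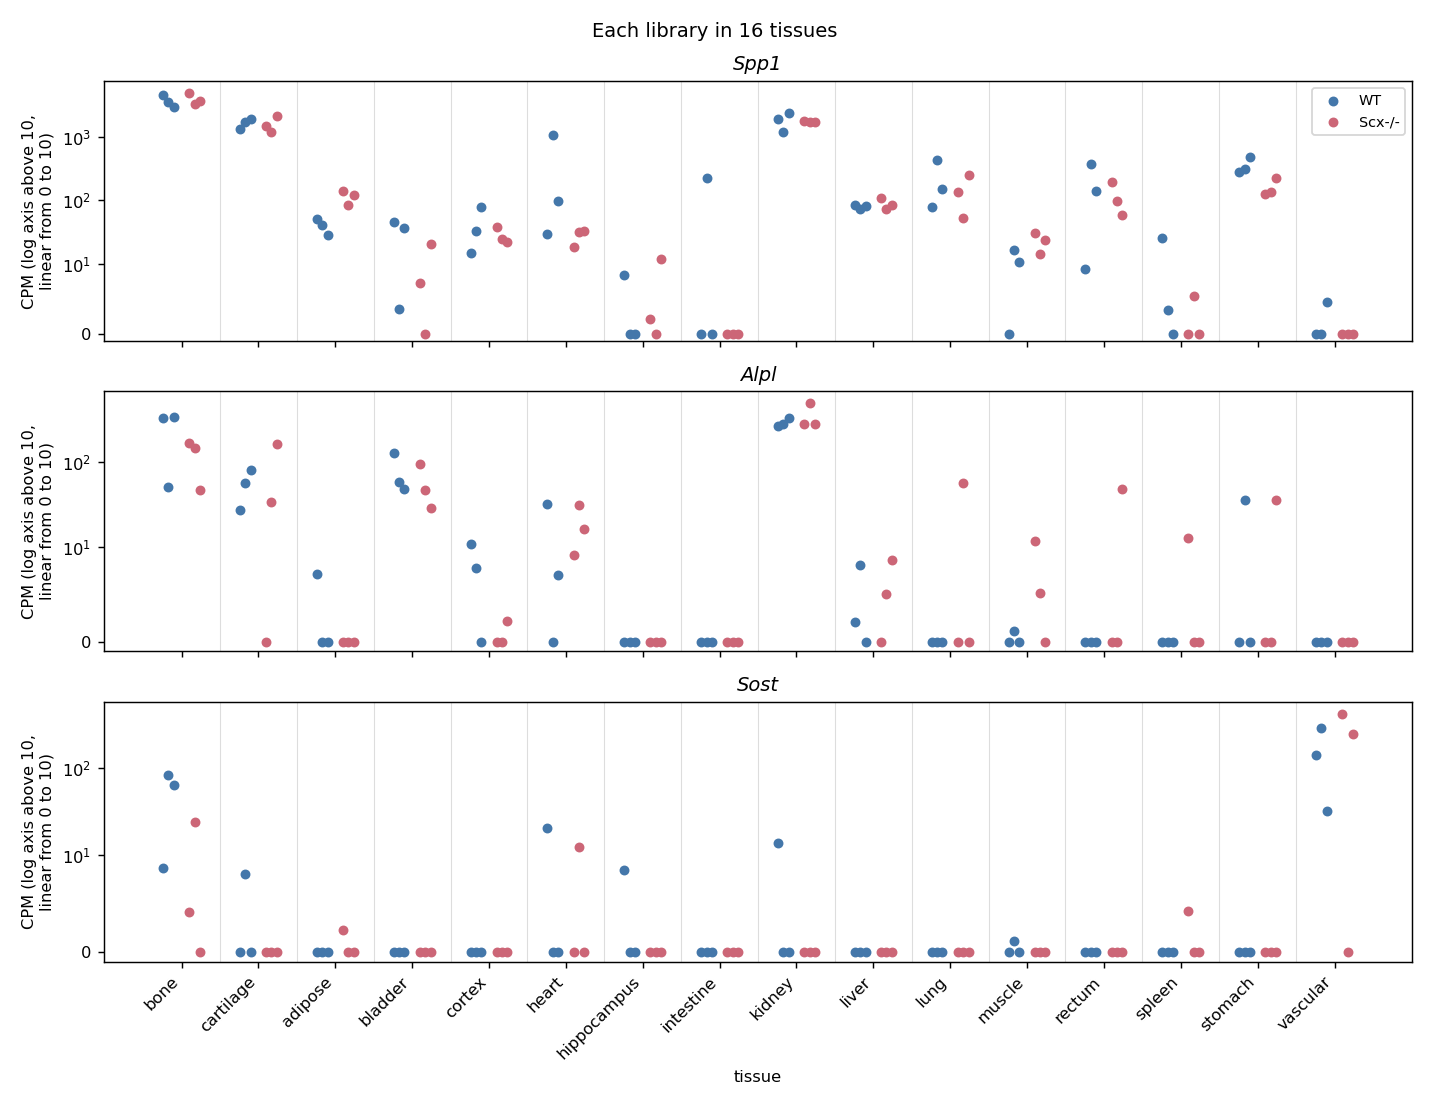
CPM of *Spp1*, *Alpl*, and *Sost* in each of 96 libraries (log axis above 10 CPM, linear below) by tissue, WT in blue and *Scx*-/- in red. *Spp1* is highest in bone, *Alpl* in kidney, and *Sost* in vascular samples, where 1 *Scx*-/- library is at 0.

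*Spp1* was the member with the widest reach. Stomach held 277, 311, and 485 CPM in WT and 126, 135, and 221 CPM in *Scx*-/- libraries, and liver 71.5 to 108 CPM in all 6. Lung ranged from 52.8 to 428 CPM and rectum from 9.20 to 373 CPM. Vascular samples, hippocampus, and spleen were at 0 to 25.7 CPM. The heart mean of 212 CPM rested on the library with 11244 counts, and in the other 5 heart libraries *Spp1* was at 18.3 to 95.9 CPM.

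Between genotypes no member was called in bone. With edgeR on 3 against 3 libraries, 0 of 10 members were called and 0 had an unadjusted *p* under 0.05, where 0% of 12344 genes were called and 437 had an unadjusted *p* under 0.05. DESeq2 called 0 members and 1 gene. Fitted log2 fold changes (*Scx*-/- minus WT) were 0.22 ± 0.36 (SE) for *Spp1* and -0.08 ± 0.49 for *Ibsp*, where the estimates are tightest. *Dmp1* was at 0.86 ± 0.76, *Bglap* at -0.57 ± 0.85, *Sp7* at -0.51 ± 1.09, *Phex* at -0.53 ± 1.499, *Mepe* at -0.13 ± 1.60, and *Alpl* at -0.81 ± 1.17. For *Bglap2* the value was -3.94 ± 2.08 with an adjusted *p* of 0.636 by edgeR, the lowest among the members, and for *Sost* it was -2.01 ± 2.41. Summed osteocalcin gave -0.98 ± 0.77 (adjusted *p* = 0.636). The median over members was -0.52 beside 0.08 over all genes. A *p* above the threshold does not show that the levels were equal. The SEs above, taken back from the test statistic, give an approximate precision.

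Marker lists in bone are given beside this result. The summed kidney tubule markers, as above, and tendon markers (*Scx*, *Tnmd*, *Fmod*, *Thbs4*, and *Mkx*), at 1109 to 2228 CPM in WT and 451 to 915 CPM in *Scx*-/- bone, did not overlap between genotypes. Of all genes, each taken singly, 5.72% did not overlap in bone. Without *Scx*, the targeted gene, the tendon sum was 953 to 2228 CPM in WT and 451 to 915 CPM in *Scx*-/- bone. The fitted median was -1.70 for 7 kidney tubule markers (1 lower at an unadjusted *p* under 0.05) and -2.40 for 5 tendon markers (2 lower). The summed levels of the other cell type lists overlapped between genotypes. Smooth muscle markers had a median of -1.69 (0 of 7 at that *p*) and erythroid markers one of 1.36 (3 of 7 higher and 1 lower). Medians were 0.55 for neutrophil markers, 0.38 for skeletal muscle markers, 0.0195 for chondrocyte markers, and -0.19 for osteoclast markers, and edgeR called 0 genes of any list. Their part in the member values was not tested.

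In cartilage 0 of 10 members were called by edgeR, where 0.0222% of all genes were (3 of 13534), and DESeq2 called 0 members. Of the members *Phex* alone had an unadjusted *p* under 0.05 (adjusted *p* = 0.769 by edgeR), where 434 of 13534 genes did. It alone did not overlap between genotypes, where 6.58% of all genes did not. By counting error alone, the pooled *Phex* level was at least 9.75-fold lower in *Scx*-/- cartilage, against a floor of 3 counts over the 3 libraries, from 30 WT counts. *Ibsp* was at -0.87 ± 0.53 and *Bglap* at -1.31 ± 1.28. *Spp1* was at 0.02 ± 0.33 (below 0 with library totals), *Dmp1* at -0.13 ± 0.86, *Mepe* at -0.58 ± 1.55, *Sp7* at 0.18 ± 1.56, and *Alpl* at 0.32 ± 1.23. Without *Scx*-/- replicate 1, the library that held *Scx* counts, 0 members were called, the *Phex* bound was at least 6.49-fold, *Ibsp* was at -0.92, *Bglap* at -0.99, *Spp1* at 0.0853, *Sp7* at 0.76, and *Alpl* at 0.92, and *Dmp1* (0.14) and *Mepe* (0.0176) turned sign.

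Markers of blood cells in cartilage are given beside these values. Neutrophil and marrow markers summed to 390 to 1052 CPM in WT libraries and to 62.0, 4047, and 6369 CPM in *Scx*-/- libraries, the lowest of them replicate 1. Their fitted median was 1.98, with 0 called by edgeR and 3 of 9 higher at an unadjusted *p* under 0.05, where 434 of 13534 genes had such a *p* in either direction. The 7 erythroid markers, at 427 to 2552 CPM in WT and 401 to 3322 CPM in *Scx*-/- libraries, went both ways, with 2 higher and 2 lower at an unadjusted *p* under 0.05. The alpha-globin gene *Hba-a1* was called higher in *Scx*-/- (1.76 ± 0.39, adjusted *p* = 0.0470 by edgeR). Its near-identical neighbor *Hba-a2* was at -4.58 ± 1.99 (adjusted *p* = 0.769), and their separate counts are uncertain. Mean beta-globin levels in WT and *Scx*-/- were 699 and 1.21 CPM for *Hbb-bs* (0 to 2097 CPM in WT) and 37.6 and 0 CPM for *Hbb-bt*. The *Hba-a1* call was lost with filterByExpr, with no filter, with the replicate block, with DESeq2, in the joint fit, and without WT replicate 2 or *Scx*-/- replicate 3, each of which called 0 genes in cartilage. Chondrocyte markers ranged from 6984 to 12100 CPM in WT and from 2543 to 22787 CPM in *Scx*-/- libraries, the highest being replicate 1. The part of these markers in the member values was not tested.

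**Figure D5:**
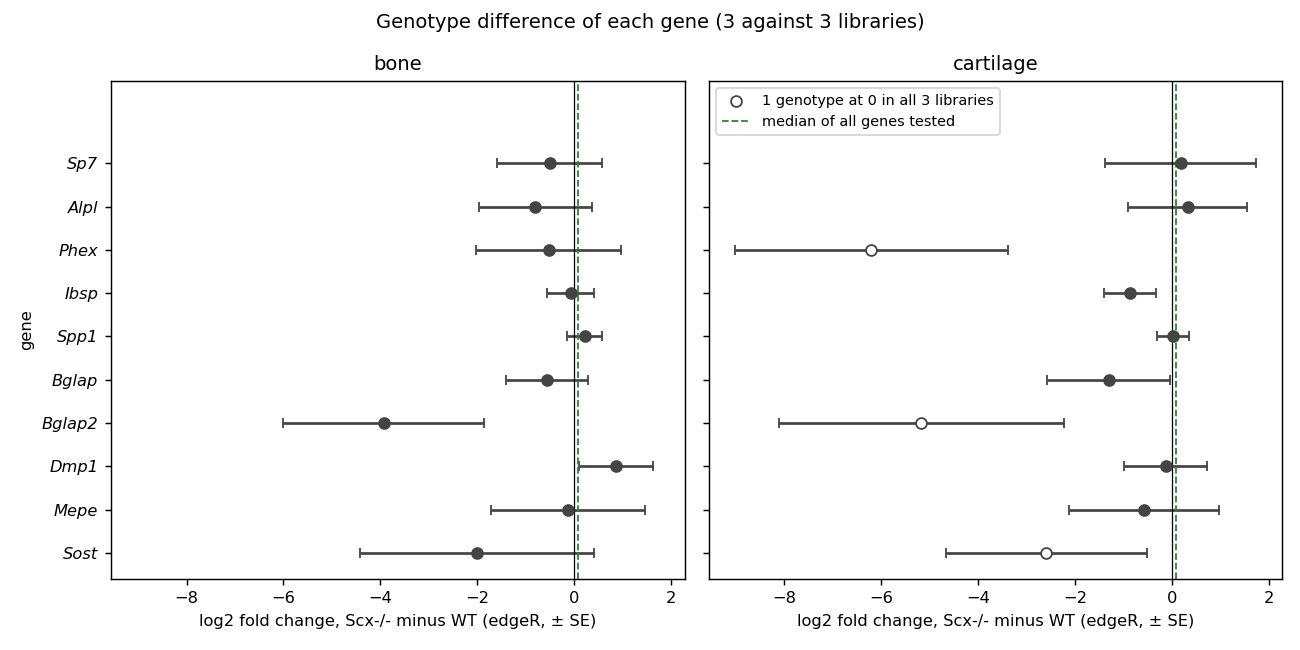
Log2 fold change of each gene between genotypes (*Scx*-/- minus WT, edgeR, ± SE, 3 against 3 libraries) in bone and cartilage, with the median of all genes tested (dashed). In bone every point but *Bglap2* and *Dmp1* lies within 1 SE of 0, and open points, which depend on the prior count, mark genes at 0 in 1 genotype.

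Over all 16 tissues 71 member and tissue pairs had a count and could be tested between genotypes, and 89 were at 0 in all 6 libraries. edgeR called 0 of the 71 pairs, where 0.0914% of all gene tests were called, and 5 pairs (7.04%) had an unadjusted *p* under 0.05, as did 4.01% of all gene tests. DESeq2 called 0. In 3 of the 71 pairs the genotypes did not overlap, where 7.96% of all gene tests did not. The 5 pairs with a low unadjusted value were *Phex* in cartilage, *Sp7* in hippocampus (16 counts in 2 WT libraries), and *Spp1* in heart, intestine (28 counts in 1 WT library), and stomach. In muscle 5 members had a count and 0 were called, where 0.0482% of all genes were. *Spp1* in stomach lay below the WT range in every *Scx*-/- library (-1.18 ± 0.39, adjusted *p* = 0.699 by edgeR), where 7.91% of all genes did not overlap and the median of all genes was 0.14. In adipose it lay above the WT range in every *Scx*-/- library, at 139, 83.9, and 118 CPM against 49.95, 39.8, and 28.5 CPM (2.04 ± 1.198, adjusted *p* = 0.614), where 7.87% of genes did not overlap and the median of all genes was 1.47. In kidney *Spp1* (-0.17 ± 0.19, adjusted *p* = 0.831) and *Alpl* (0.15 ± 0.31, adjusted *p* = 0.917) overlapped, as did *Sost* in vascular samples (0.29 ± 0.79, adjusted *p* = 0.941).

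Whether the genotype difference in bone departed from that in another tissue was tested with an interaction term in edgeR. Of 150 member and tissue pairs 0 were called, where 0.00952% of all gene tests were, and 11 (7.33%) had an unadjusted *p* under 0.05, near the 6.24% of all gene tests. The lowest adjusted *p* was 0.517, for *Spp1* in bone against bladder. DESeq2 called 0.

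Other genes of bone formation gave the surroundings of these members. Of 36 listed genes, 32 were tested in bone, 4 being at 0 there. The 5 named, by mean CPM in bone without regard to length, were *Col1a1* (51130 ± 5794 CPM in WT and 46761 ± 8127 CPM in *Scx*-/- bone) and *Col1a2* (51542 ± 6142 and 41272 ± 3495), which encode type I collagen, *Sparc* (25312 ± 4284 and 16911 ± 4693), which encodes the collagen-binding protein osteonectin, *Serpinh1* (2555 ± 304 and 1251 ± 273), the collagen chaperone, and *Mmp14* (814 ± 167 and 572 ± 232), a membrane collagenase (SD, n = 3 each). The list summed to 133594 to 141512 CPM in WT and 93277 to 123568 CPM in *Scx*-/- bone, ranges that did not overlap, where 5.72% of all genes, each taken singly, did not. *Col1a1*, *Col1a2*, and *Sparc* made up 92.5 to 95.9% of that sum, and without these 3 genes it was 7957 to 9973 CPM in WT and 4740 to 6576 CPM in *Scx*-/- bone. The summed members overlapped, at 5071 to 9049 and 6405 to 7042 CPM, and *Spp1* was 3811 of their 6726 CPM in bone (means of 6 libraries). By edgeR 0 of the 32 genes were called between genotypes in bone, with 2 at an unadjusted *p* under 0.05, *Serpinh1* (-0.89 ± 0.45) and *Smpd3* (-1.76 ± 0.83), both lower in *Scx*-/- and both at an adjusted *p* of 0.636. The median of the list was -0.28 beside 0.08 for all genes. In cartilage 0 of 33 were called, with 2 at an unadjusted *p* under 0.05, where 434 of 13534 genes were. In muscle 0 of 26 were called, with 3 at that *p*, where 676 of 14532 genes were.

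Against cartilage 1 of 33 listed genes was called higher in bone, the parathyroid hormone receptor gene *Pth1r* (1.98 ± 0.55, adjusted *p* = 0.0307 by edgeR), and 1 lower, *Ahsg* (-6.90 ± 1.19, adjusted *p* = 4.00e-06), which encodes the liver-made mineral inhibitor fetuin-A. Against muscle 19 of 32 were called higher in bone and 0 lower, both type I collagen genes among them. The median of the list was 3.20 beside -0.66 for all genes and 7.18 for the members.

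Likeness to the members was measured over the 32 group means as Pearson's r between log2(CPM + 1) of a gene and of the summed members, for 17402 genes with at least 10 CPM in 1 group. The points share libraries and depth, so r is given as a description. *Spp1* made up 3811 of the summed 6726 CPM in bone, 1615 of 2254 CPM in cartilage, and 1776 of 2100 CPM in kidney (means of 6 libraries). The order of genes therefore leans on *Spp1*. The closest genes were *Bicc1* (r = 0.779), *Col27a1* (0.753), *Tnn* (0.750), *Sgms2* (0.747), *Col8a1* (0.735), *Vasn* (0.718), *Plod2* (0.698), *Dab2* (0.695), *Pth1r* (0.694), and *Timp1* (0.694). *Sgms2*, a sphingomyelin synthase, averaged 302 CPM in bone and 67.4 CPM in cartilage, *Plod2*, a collagen lysyl hydroxylase, 158 and 117 CPM, and *Tnn*, the matrix protein tenascin-W, 47.2 and 66.3 CPM. *Bicc1*, *Dab2*, and *Pth1r* were highest in kidney, where *Spp1* was also high. With bone left out 3 of these 10 genes stayed among the first 10. Each member's r with the sum of the other 9 was 0.505 to 0.661, except *Sost* at -0.0778.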

How the data were processed

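Whole tissues of mice aged 3 weeks were frozen, total RNA was extracted with Trizol, and libraries were made by MuSeq and sequenced on an Illumina instrument. Per the paper's methods and the labels, the authors mapped reads to mm10 with Bowtie2 and counted them per gene with HTSeq. Tool versions, the annotation, the use of strand, and molecular identifiers were not given in the sources used here. The deposited values are raw counts for 41575 gene symbols in 96 libraries, with 0 columns left unmapped. CPM was not scaled to gene length, so sums over genes and the order of genes by CPM follow counts, not transcript number.

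Groups came from the labels. Library totals were 11244 to 1658192 counts, and no pair of replicates agreed within sampling noise (lowest chi-square over its degrees of freedom 6.83). Genes at 0 in every library of a comparison were removed. Counts were tested with edgeR 4.0.16 in R 4.3.3 (TMM factors, robust quasi-likelihood test, Benjamini-Hochberg adjustment over all genes, threshold 0.05), as *Scx*-/- against WT within each tissue, as bone against each of 15 tissues with genotype as a term, and as the interaction of both. CPM used library totals. An edgeR SE is the absolute log2 fold change over the square root of the test's F statistic, so it is approximate. Likeness used a pseudocount of 1 CPM. A floor is 3 counts of a total. It allows for counting error only, so folds against it are not firm bounds where replicates spread more widely. Tests were tried on simulated counts, where 0% of genes changed 4-fold and 9% of genes changed 16-fold were recovered between genotypes in bone (11051 genes), 6% and 38% in cartilage (12452 genes), and 4% and 52% in muscle (13622 genes, with 3 false calls). For bone against cartilage they were 1% and 35% (13954 genes), and against muscle 3% and 41% (14739 genes). Changed genes were drawn at random from those at 10 CPM or more, so these shares do not describe abundant members such as *Spp1*.

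Alternatives were RLE factors, library totals, filterByExpr, no filter, a replicate block, DESeq2 1.42.0, thinning to the smallest total, a joint fit of all libraries, and leaving out each library. Summed osteocalcin, the *Spp1* comparison of stomach with adipose, the kidney shares, the bounds and sums without 1 library or 3 genes, and the brown fat genes were added after seeing the data. The members and lists were chosen with earlier results of these data known. Named were all 10 members in every tissue, by library where a group mean exceeded 10 CPM, the 5 related genes with the highest bone mean and any related gene called between genotypes in bone, cartilage, or muscle, the 10 genes most like the summed members, and *Scx*. Other genes named were chosen after their values were seen. Gene positions and promoters came from the mm10 annotation and RefSeq.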

Additional observations from a re-analysis of the deposited data

Results flagged for a closer look

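*Spp1* was set apart by the order of its libraries in stomach and adipose, with every *Scx*-/- library below the WT range in stomach (126, 135, and 221 against 277, 311, and 485 CPM) and above it in adipose (139, 83.9, and 118 against 49.95, 39.8, and 28.5 CPM). Neither difference was called by edgeR (adjusted *p* = 0.699 in stomach and 0.614 in adipose), and the median of all genes was 0.14 in stomach and 1.47 in adipose. The difference of the genotype effects, stomach minus adipose, was -3.30 ± 1.15 on the log2 scale, with an unadjusted *p* of 0.00399 and an adjusted *p* of 0.607 by edgeR. It was tested after seeing the data. WT adipose libraries held 100469 to 140132 counts and *Scx*-/- ones 333668 to 498158, and the WT values rested on 7, 4, and 3 counts of *Spp1*. The part of depth in the difference was not tested.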

How the results depend on the processing

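Over 38 member results and 558 values under alternatives, 500 kept direction and side of the threshold, 23 passed it in addition, 3 lost it, and 32 turned sign, none of them called. Members called higher in bone than cartilage numbered 1 as reported, 4 with RLE factors, library totals, filterByExpr, or DESeq2, 3 in the joint fit, and 1 to 3 with a library left out. Of 150 pairs, 125 were called higher in bone, 132 with RLE factors or library totals, 110 with filterByExpr, 122 with DESeq2, 113 in the joint fit, and 115 to 127 with a library left out. Lower in bone were 0, but 1 (*Sost* against vascular samples) with filterByExpr and in the joint fit. No alternative called a member between genotypes. The tissue with the highest level was the same on TMM sizes for 10 of 10 members, but lower places moved. Bladder and cartilage swapped for *Alpl*, and *Spp1* places changed in several tissues, for example adipose, which went from 76.6 to 193 CPM, and heart, from 212 to 109.7 CPM. DESeq2 gave no adjusted *p* for 23 of 71 genotype, 9 of 150 tissue, and 13 of 150 interaction values. Genes called between genotypes in bone numbered 0, with 1 by DESeq2 and 1 in the joint fit, and 0 to 5 with a library left out. In cartilage they numbered 3, but 0 with filterByExpr, no filter, the replicate block, DESeq2, and the joint fit, 1 when thinned, and 0 to 10 with a library left out. In muscle they numbered 7, against 15 with RLE factors, 32 with library totals, 4 with no filter or thinning, 12 with DESeq2, 3 with the block or the joint fit, and 4 to 59 with a library left out, the 59 without WT replicate 1. The cause was not tested.

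Within a tissue, WT and *Scx*-/- libraries of the same replicate number did not deviate together (correlations of -0.139 to 0.0306 in 48 pairs, 0 above 0.1). Whether the same number marks the same mouse across tissues was not tested. With the replicate block 123 pairs were called higher in bone, and 1 member against cartilage and 8 against muscle. Genotype values that turned sign under the block were *Ibsp* (0.16), *Phex* (0.51), and *Mepe* (0.71) in bone, and *Alpl* (-0.81), *Dmp1* (0.0371), and *Spp1* (-0.00907) in cartilage. *Spp1* in cartilage was also at -0.0401 with library totals, -0.00652 with filterByExpr, and -0.0250 when thinned. With a library left out, values that turned sign ranged in bone from -0.43 to 0.66 for *Ibsp*, -0.10 to 0.51 for *Spp1*, -1.09 to 3.37 for *Phex*, -0.88 to 1.91 for *Mepe*, and -1.05 to 0.0519 for *Sp7*. In cartilage they ranged from -0.24 to 0.18 for *Spp1*, -1.61 to 0.92 for *Alpl*, -1.09 to 0.32 for *Dmp1*, -6.65 to 0.0176 for *Mepe*, and -1.25 to 1.36 for *Sp7*. Kidney *Spp1* ranged from -0.38 to 0.0553, kidney *Alpl* from -0.14 to 0.29, and vascular *Sost* from -0.64 to 0.89. Values that kept sign ranged in bone from -7.15 to -3.12 for *Bglap2*, -3.39 to -1.50 for *Sost*, -1.31 to -0.0230 for *Bglap*, -1.30 to -0.40 for *Alpl*, and 0.53 to 1.07 for *Dmp1*. In cartilage such values ranged from -1.83 to -0.54 for *Bglap*, -1.16 to -0.25 for *Ibsp*, -5.78 to -5.14 for *Bglap2*, -6.75 to -5.82 for *Phex*, and -3.12 to -2.57 for *Sost*. Depth in bone limits all low members, since a count of 0 in its shallowest library allows 71.0 CPM by counting error alone.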
